A study of Mus musculus with 6 samples.

Results

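Adipogenic transcription factors that are not nuclear receptors were followed in epididymal fat of lean and obese mice. The 10 genes were set by a list of names, with no threshold on their values: Cebpa, Cebpb, Cebpd, Mlxipl, Srebf1, Klf15, Ebf1, Ebf2, Zfp423 and Tcf7l2. The list was chosen with earlier results of these data known, and the shares over all genes given below do not correct for that. All 10 were found among the 54532 genes of the count table and passed the filter on low counts. The tissue came from male C57BL/6J mice given a normal diet (ND, 4.5% fat) or a high-fat diet (HFD, 60% fat) from 4 weeks of age for 16 weeks, and both groups are labelled as without further treatment. Total RNA of unfractionated fat, not of isolated adipocytes, was sequenced in 3 ND and 3 HFD libraries. The sources used here do not say whether a library holds 1 mouse or pooled mice, and the p-values therefore measure the spread between these libraries.

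White adipocytes arise when progenitor cells receive a hormonal signal that switches on C/EBPβ and C/EBPδ, which then switch on C/EBPα and the nuclear receptor PPARγ, and both of these hold each other and the mature fat cell programme in place. In the mature cell, ChREBP (the product of Mlxipl) senses glucose and SREBP-1 (Srebf1) carries the insulin signal to the genes of fatty acid synthesis, while KLF15 takes part in glucose and amino acid use. EBF1, EBF2 and ZFP423 act in the commitment and identity of the fat lineage, and TCF7L2 is the DNA-binding partner of β-catenin in Wnt signalling.

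Mlxipl, Srebf1 and Klf15 were lower on the HFD, by 2.98-fold, 2.18-fold and 2.40-fold, and were the 3 factors that passed an adjusted p of 0.05 in edgeR's quasi-likelihood test with Benjamini-Hochberg adjustment. No factor was called higher. Across the genome, 6.04% of the 15751 genes tested were called lower and 9.85% were called higher. The median log2 fold change (HFD minus ND) of the 10 factors was -0.70, against 0.0074 over all genes tested. At an unadjusted p under 0.05, 7 factors were lower and 1 was higher in the same test, where 15.3% and 18.7% of all genes were. In DESeq2, 6 factors were called lower and 1 higher, against 8.81% and 11.2% of all genes.

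**Figure D1:**
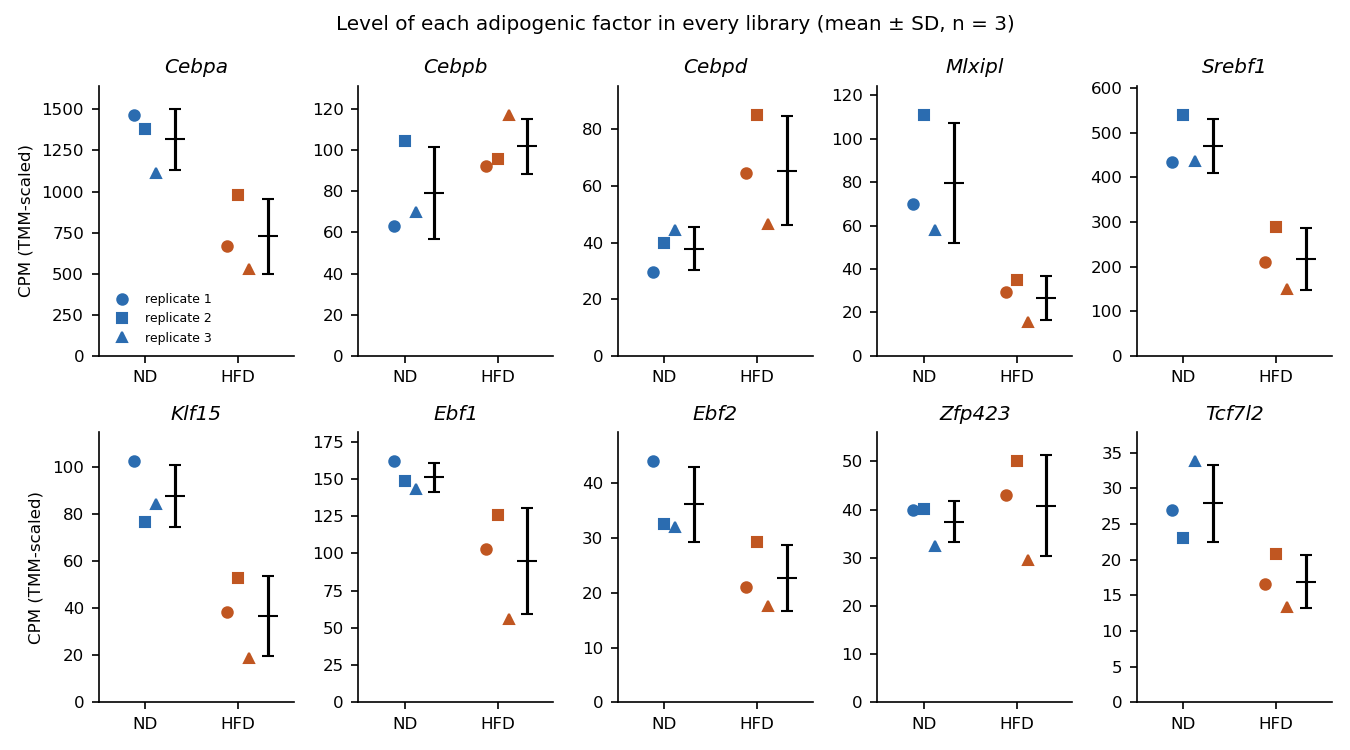
Level of each of the 10 factors in every library, in CPM (counts corrected for TMM-scaled library size); each point is 1 library, its shape gives the replicate number, and the bar is the mean ± SD of 3 libraries. The ND and HFD points lie apart for Cebpa, Cebpd, Mlxipl, Srebf1, Klf15, Ebf1, Ebf2 and Tcf7l2 and overlap for Cebpb and Zfp423.

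The tissue and its libraries differed in more than the factors. The count totals lay between 16996896 and 18859320, and no library duplicated another. The 12 adipocyte markers were all detected, with a summed level of 46163 to 59659 CPM on the ND and 22629 to 44919 CPM on the HFD, and epididymal duct markers summed to at most 1.29 CPM, with Defb2 and Spag11b at 0 in every library. Cfd held a large share of the adipocyte sum on the ND (13478, 15619 and 11711 CPM) but a small one on the HFD (1158, 2501 and 162 CPM). Without it the other 11 markers summed to 34452 to 44040 CPM on the ND and 22467 to 42418 CPM on the HFD, and the groups overlapped. Of the 12 adipocyte markers, 10 had a negative log2 fold change (median -0.52), and edgeR called 3 lower and 1 higher. Among those not called were Plin1 (log2 fold change -0.79), Lipe (-0.52), Adipoq (-0.52), Lpl (-0.33), Fabp4 (-0.24), Cidec (-0.08) and Plin4 (0.03). The 10 macrophage markers summed to 1408 to 1510 CPM on the ND and 3101 to 7229 CPM on the HFD. The 6 markers of lipid-associated macrophages summed to 668 to 1152 CPM on the ND and 3742 to 12767 CPM on the HFD, and the 10 progenitor markers to 1027 to 1264 CPM and 1065 to 1235 CPM. In whole tissue, fewer adipocytes and less RNA of a gene per adipocyte cannot be told apart. Endothelial markers summed to 993 to 1325 CPM on the ND and to 1066, 1068 and 566 CPM on the HFD, and mesothelial markers to 154 CPM in HFD replicate 3 and 222 to 320 CPM elsewhere, so that HFD replicate 3 was lowest in both. The 8 epithelial and ciliated markers summed to 261 CPM in ND replicate 3 and to 12.5 to 16.8 CPM elsewhere.

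Mlxipl (ENSMUSG00000005373, GRCm38 chr5:135089890-135138382, plus strand) encodes the glucose-responsive ChREBP, which binds DNA as a dimer with MLX. Its level was 70.1, 111 and 58.1 CPM in ND replicates 1 to 3 and 29.6, 35.1 and 15.5 CPM in HFD replicates 1 to 3. The lowest ND library was above the highest HFD library. The mean fell from 79.7 ± 27.7 CPM (SD, n = 3) to 26.7 ± 10.1 CPM, a log2 fold change of -1.58 (SE 0.35, edgeR adjusted p = 0.0263). Without ND replicate 1, ND replicate 2 or HFD replicate 1 the call was lost, with an edgeR adjusted p of 0.0724, 0.0835 and 0.0898, and also without the filter on low counts (0.0819), while the fold change stayed negative.

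Mlxipl has a pair of RefSeq start sites 17001 bases apart, of which the upstream one gives the shorter, more active ChREBP-β and the downstream one ChREBP-α. The counts are per gene and do not separate them. The 250 bases before each start are shown because they differ in the letters searched. Capitals mark each match on either strand to CACGTG (E-box), TTGCNNAA (C/EBP), CCCNNGGG (EBF), ACANNNTGT (glucocorticoid receptor), ATCAAAG (TCF), TCACNCCAC (sterol response), CCAAT or TATAAA. Sequences are RefSeq, build GRCm38.p6, written 5′ to 3′ on the strand of the gene.
Mlxipl upstream start, chr5:135089640-135089889, plus strand: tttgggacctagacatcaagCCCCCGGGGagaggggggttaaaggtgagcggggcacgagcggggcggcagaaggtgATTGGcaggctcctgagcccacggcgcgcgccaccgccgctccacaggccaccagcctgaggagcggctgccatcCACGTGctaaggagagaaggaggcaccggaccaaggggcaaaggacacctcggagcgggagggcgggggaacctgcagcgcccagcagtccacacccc
Mlxipl downstream start, chr5:135106641-135106890, plus strand: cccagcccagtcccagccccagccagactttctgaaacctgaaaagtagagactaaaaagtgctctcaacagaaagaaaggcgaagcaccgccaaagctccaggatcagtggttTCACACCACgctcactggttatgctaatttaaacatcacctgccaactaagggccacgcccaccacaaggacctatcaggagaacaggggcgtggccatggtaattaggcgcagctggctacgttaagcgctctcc
The window of the upstream start held an E-box from 98 bases before the start, the core of the element to which ChREBP itself can bind, together with overlapping EBF matches and a CCAAT box on the opposite strand. The window of the downstream start held a match to the sterol response letters from 136 bases before the start. Of the 32851 RefSeq windows of this length, 6.02% held the E-box and 1.05% the sterol response letters.

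Srebf1 (ENSMUSG00000020538, chr11:60199089-60222581, minus strand) encodes SREBP-1, which is cut from a membrane-bound precursor before it enters the nucleus. Its level was 434, 539.99 and 437 CPM on the ND and 211, 288 and 149.7 CPM on the HFD. All ND libraries were above all HFD libraries. The mean fell from 470.4 ± 60.3 CPM (SD, n = 3) to 216 ± 69.3 CPM, a log2 fold change of -1.12 (SE 0.25, edgeR adjusted p = 0.0272). The call was lost without any 1 of the ND libraries or without HFD replicate 1, with edgeR adjusted p-values of 0.0666 to 0.110, and the direction held. RNA level says nothing of how much SREBP-1 was cut. The counts also do not separate the transcripts of SREBP-1a and SREBP-1c, and the windows before the 3 RefSeq starts are shown with the same capitals.
Srebf1 first start, chr11:60222582-60222831, minus strand: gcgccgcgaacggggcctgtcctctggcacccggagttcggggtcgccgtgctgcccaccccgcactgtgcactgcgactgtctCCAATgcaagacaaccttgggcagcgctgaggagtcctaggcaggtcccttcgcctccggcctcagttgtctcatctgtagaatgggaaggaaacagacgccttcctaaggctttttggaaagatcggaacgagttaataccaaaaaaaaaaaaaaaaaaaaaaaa
Srebf1 second start, chr11:60220628-60220877, minus strand: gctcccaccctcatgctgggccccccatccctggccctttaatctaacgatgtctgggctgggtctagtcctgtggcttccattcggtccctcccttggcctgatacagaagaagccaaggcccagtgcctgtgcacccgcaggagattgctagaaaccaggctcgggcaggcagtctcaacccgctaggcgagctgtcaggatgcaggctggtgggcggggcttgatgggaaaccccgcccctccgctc
Srebf1 last start, chr11:60210472-60210721, minus strand: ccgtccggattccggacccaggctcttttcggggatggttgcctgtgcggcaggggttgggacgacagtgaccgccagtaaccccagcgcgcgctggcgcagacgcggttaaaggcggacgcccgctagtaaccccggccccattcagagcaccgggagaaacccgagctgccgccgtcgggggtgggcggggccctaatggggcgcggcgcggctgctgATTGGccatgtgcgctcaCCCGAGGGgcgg
The first window held a CCAAT box, the second held no match to any of the 8 letter patterns, and the last held a CCAAT box on the opposite strand and an EBF match. EBF matches were present in 11.8% and CCAAT boxes in 33.8% of all windows.

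Klf15 (ENSMUSG00000030087, chr6:90462576-90475238, plus strand) encodes a zinc finger factor that is itself a target of the glucocorticoid receptor and is known to act on Slc2a4, the insulin-responsive glucose transporter GLUT4. It was measured at 102, 76.8 and 84.4 CPM on the ND and at 38.2, 52.8 and 18.9 CPM on the HFD. The groups did not overlap, and HFD replicate 3 was the lowest. The mean fell from 87.9 ± 13.2 CPM (SD, n = 3) to 36.6 ± 17.0 CPM, a log2 fold change of -1.26 (SE 0.34, edgeR adjusted p = 0.0468). The call was lost in 4 of the 6 fits that left out 1 library, those without any 1 of the ND libraries or without HFD replicate 1 (edgeR adjusted p = 0.0987 to 0.141), and also without the filter on low counts (0.124).
Klf15, chr6:90462326-90462575, plus strand: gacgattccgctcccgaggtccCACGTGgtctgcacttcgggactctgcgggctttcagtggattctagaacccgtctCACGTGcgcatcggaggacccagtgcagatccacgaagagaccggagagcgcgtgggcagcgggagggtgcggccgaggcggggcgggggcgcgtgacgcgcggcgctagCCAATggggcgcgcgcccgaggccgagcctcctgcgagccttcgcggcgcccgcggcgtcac
This window held the E-box letters at 2 places, from 228 and from 172 bases before the start, and a CCAAT box. The E-box was found in 2 of the 14 windows of the factors, those of Klf15 and of the upstream Mlxipl start. The glucocorticoid receptor and TCF letters were in none of the 14, and in only 5.84% and 3.21% of all windows. No sequence was read for Cebpd and Ebf2.

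The fold changes of the C/EBP factors differed in sign, and none of these factors passed in edgeR. Cebpa (ENSMUSG00000034957, chr7:35119293-35121928) keeps the mature adipocyte insulin-responsive, and its level was 1466, 1379 and 1111 CPM on the ND and 671, 979.5 and 530.5 CPM on the HFD. The groups were apart, with means of 1319 ± 185 CPM and 727 ± 230 CPM (SD, n = 3). The log2 fold change of -0.86 (SE 0.26) missed the threshold (edgeR adjusted p = 0.0652) and passed it in DESeq2 (adjusted p = 0.00578).

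Cebpb (ENSMUSG00000056501, chr2:167688915-167690418) is an early factor that inflammatory signals also induce in macrophages. It was at 63.0, 104 and 69.8 CPM on the ND and 92.3, 95.8 and 117 CPM on the HFD. The groups overlapped because ND replicate 2 was above both HFD replicates 1 and 2, and the log2 fold change was 0.36 (SE 0.21, edgeR adjusted p = 0.267). Without ND replicate 2 it was 0.61 (edgeR adjusted p = 0.0792). Cebpd (ENSMUSG00000071637, chr16:15887286-15891031), its early partner, was at 29.5, 39.9 and 44.3 CPM against 64.5, 85.1 and 46.6 CPM. The closest values of the groups were 44.3 CPM in ND replicate 3 and 46.6 CPM in HFD replicate 3. The log2 fold change of 0.79 (SE 0.25) was not called by edgeR (adjusted p = 0.0701) and was called by DESeq2 (adjusted p = 0.0287). Cebpa, Cebpb and Cebpd each share exonic sequence with a gene on the opposite strand (Gm45091, Tmem189 and Spidr), whose reads cannot be told apart without strand.

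Compared per length, in FPKM, which corrects counts for gene length and library size, Cebpa was the most abundant of the 10 factors on both diets, at 509 ± 74.3 FPKM (SD, n = 3) on the ND and 277 ± 88.1 FPKM on the HFD. The ratio of Cebpb to Cebpa in FPKM was 0.0753, 0.133 and 0.110 on the ND and 0.241, 0.171 and 0.387 on the HFD. The ratio of Cebpd to Cebpa was 0.0142, 0.0204 and 0.0280 against 0.0677, 0.0611 and 0.0619. Both ratios were higher in every HFD library than in any ND library, by 1.29 and 1.66 on the log2 scale. For each, the exact two-sided permutation test gave p = 0.1, the smallest value that 3 libraries against 3 allow, and 5 ratios were compared in all (Benjamini-Hochberg adjusted p = 0.167 for both). Leaving out 1 library at a time gave 0.98 to 1.57 and 1.41 to 1.90. Macrophage marker sums were also higher in every HFD library than in any ND library. Among the HFD libraries Cebpb to Cebpa was highest in HFD replicate 3, which had the largest macrophage sum (7229 CPM), and Cebpd to Cebpa was highest in HFD replicate 1 (4024 CPM). The part of macrophage RNA in the ratios was not tested.

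**Figure D2:**
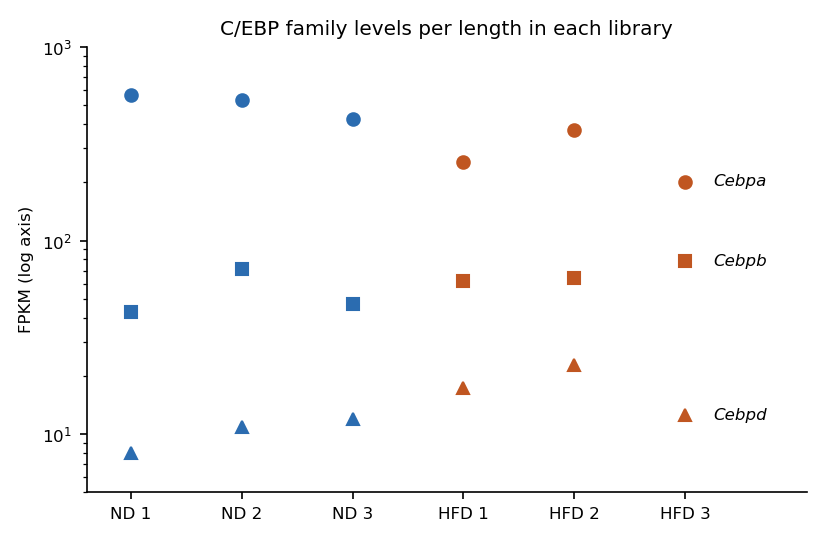
FPKM of Cebpa, Cebpb and Cebpd in each of the 6 libraries on a log axis; circles are Cebpa, squares Cebpb and triangles Cebpd. The gaps from Cebpa down to Cebpb and to Cebpd are narrower in each of the 3 HFD libraries than in any ND library.

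The order of the other factors per length differed between the diets. On the ND, Srebf1 (84.9 ± 11.2 FPKM, SD, n = 3) came after Cebpa and was followed by Cebpb (53.5 ± 15.2), Klf15 (32.0 ± 4.86), Ebf1 (15.8 ± 1.07), Mlxipl (14.7 ± 5.16) and Cebpd (10.3 ± 2.02). Zfp423 (6.80 ± 0.824), Ebf2 (5.31 ± 1.02) and Tcf7l2 (3.24 ± 0.609) were lowest. The library ranges of the neighbours Ebf1 and Mlxipl, Mlxipl and Cebpd, and Zfp423 and Ebf2 overlapped. Within libraries, Zfp423 was above Ebf2 in all 3, and the other overlapping pairs kept their order in 2 of 3. On the HFD, Cebpb (68.0 ± 8.81 FPKM) stood above Srebf1 (38.6 ± 12.4), and Cebpd (17.6 ± 5.19) came before Klf15 (13.2 ± 6.14), Ebf1 (9.80 ± 3.67), Zfp423 (7.32 ± 1.89), Mlxipl (4.86 ± 1.84) and Ebf2 (3.30 ± 0.877). From Cebpd to Ebf2 the library ranges of neighbours overlapped, although their order held within each of the 3 HFD libraries. Tcf7l2 (1.95 ± 0.431) remained last.

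Of the lineage factors, the EBF genes and Tcf7l2 were lower in every HFD library than in any ND library without passing the test. Ebf1 (ENSMUSG00000057098, chr11:44617317-45008091) was at 162, 149 and 143 CPM against 103, 126 and 56.3 CPM, a log2 fold change of -0.67 (SE 0.27, edgeR adjusted p = 0.134). Ebf2 (ENSMUSG00000022053, chr14:67233292-67430918), known for its part in beige and brown fat identity, was at 44.0, 32.5 and 31.9 CPM against 21.1, 29.4 and 17.7 CPM, with a log2 fold change of -0.67 (SE 0.22, edgeR adjusted p = 0.0792). The ratio of Ebf2 to Ebf1 differed by 0.06 on the log2 scale (exact permutation p = 0.8, n = 3 a group). Tcf7l2 (ENSMUSG00000024985, chr19:55741820-55933654) was at 26.9, 23.1 and 33.8 CPM against 16.6, 20.8 and 13.4 CPM, a log2 fold change of -0.72 (SE 0.21, edgeR adjusted p = 0.0574). DESeq2 called Ebf2 (adjusted p = 0.0428) and Tcf7l2 (adjusted p = 0.0195) lower.

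Zfp423 (ENSMUSG00000045333, chr8:87661810-87959595), a factor of committed preadipocytes that holds mature white fat cells in the white state, was at 39.9, 40.1 and 32.5 CPM on the ND and 43.1, 49.99 and 29.4 CPM on the HFD. The groups overlapped, and the log2 fold change was 0.12 (SE 0.20, edgeR adjusted p = 0.713). Its relative Zfp521, which opposes it in the fat lineage, had a log2 fold change of -0.52 (edgeR adjusted p = 0.0835). The ratio of Zfp521 to Zfp423 in FPKM was 0.508, 0.412 and 0.459 on the ND and 0.322, 0.230 and 0.360 on the HFD. All HFD ratios were below all ND ratios, with a log2 difference of -0.62 and p = 0.1 in the exact permutation test, the smallest possible.

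Of the 10 factors, 7 were lower in every HFD library than in any ND library, where 19.0% of all genes tested were apart in that direction. These were all 7 factors with a negative fold change, and 49.5% of all genes tested had a negative one. In the other direction only Cebpd, 1 of the 10, was apart, where 21.9% of all genes were. In 9 of the 10 factors, the 7 with negative fold changes and Cebpd and Zfp423, HFD replicate 2 had the highest and HFD replicate 3 the lowest HFD level. The adipocyte marker sum, with or without Cfd, followed the same order (44919 CPM in HFD replicate 2, 32390 in HFD replicate 1 and 22629 in HFD replicate 3), and the macrophage sum the opposite one. When libraries were scaled by the median ratio over the 12 adipocyte markers, an alternative added after the data were seen, the log2 fold changes were -0.95 for Mlxipl, -0.72 for Klf15, -0.48 for Srebf1 and -0.21 for Cebpa. None of the 10 factors was then called lower, and Cebpd was called higher (log2 fold change 1.42, edgeR adjusted p = 0.0271). Under that scaling Ebf1, Ebf2 and Tcf7l2 lay between -0.075 and -0.014, and the median of all genes tested was 0.77. Counts of calls over all genes went from 1552 higher and 952 lower to 2312 higher and 127 lower. All C/EBPα targets listed below except Agt and Pck1 are among these 12 markers, and so is the KLF15 target Slc2a4. The scaling is therefore not independent of the factors.

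**Figure D3:**
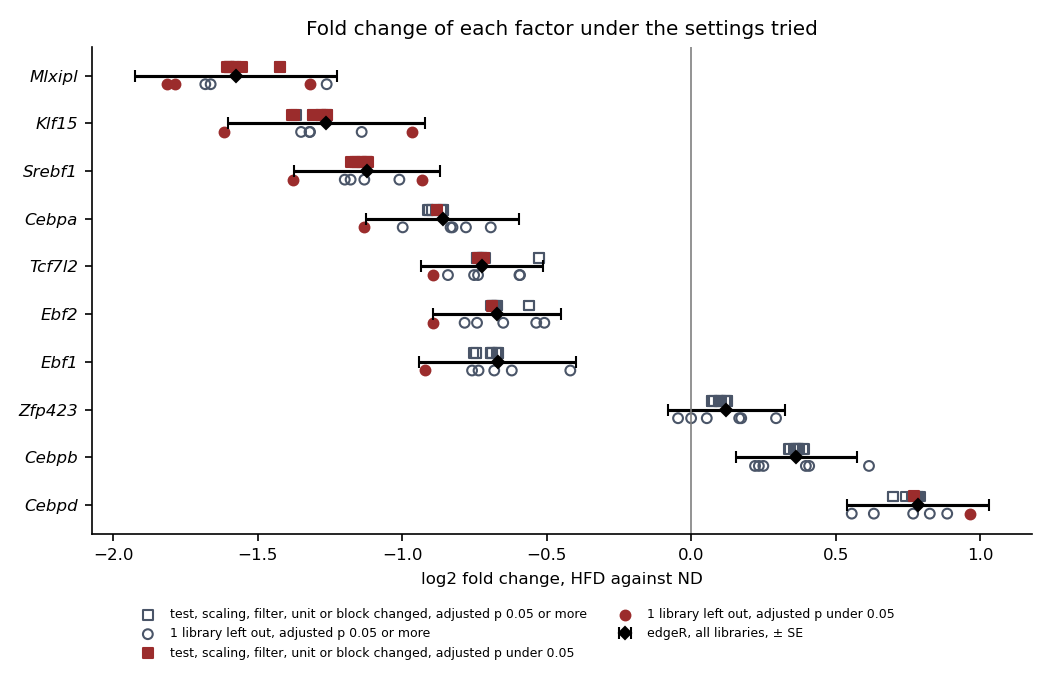
Log2 fold change (HFD minus ND) of each factor in the reported fit, under other tools, scalings and filters, and with 1 library left out; scaling to adipocyte markers is not drawn. Filled symbols mark an adjusted p under 0.05, and only Zfp423 crosses 0.

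Known target genes of ChREBP and SREBP-1, the enzymes of fatty acid synthesis and their partners, were counted next. For this and the following lists, edgeR called 6.04% of all genes tested lower and 9.85% higher. Of 19 listed targets 18 were tested, 9 were called lower and 0 higher in edgeR, and their median log2 fold change was -1.79. The list had 1 gene with a positive fold change and an unadjusted p under 0.05, and DESeq2 called 1 higher and 12 lower. Acaca, the acetyl-CoA carboxylase that makes malonyl-CoA, was at 704, 2208 and 622 CPM on the ND and 125, 171 and 77.3 CPM on the HFD, a log2 fold change of -3.24 (edgeR adjusted p = 0.0146). Gpam, the first enzyme of glycerolipid synthesis, fell by 1.97 (edgeR adjusted p = 0.00990), the lipid droplet protein gene Pnpla3 by 2.23 (0.0107) and the desaturase gene Fads1 by 1.06 (0.0132) on the log2 scale. Fatty acid synthase (Fasn), Acacb, Elovl6, Khk and Fads2 were the other 5 called. Khk and Fads2 were highest in ND replicate 3 (34.0 and 38.3 CPM), the library with the most epithelial marker RNA. Txnip, a glucose-induced ChREBP target that restrains glucose uptake, went the other way at 0.69 without passing (edgeR adjusted p = 0.0565).

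ND replicate 2 stood apart in these targets. Of the 19 listed, 15 were highest in ND replicate 2 among the ND libraries, and 7 were at least 2 times the mean of the other ND libraries, led by Acly at 7.01 times and Elovl6 at 5.42 times. Mlxipl was at 1.73 times and Srebf1 at 1.24 times that mean. Leaving out any 1 ND library reduced the targets called lower, to 4 without replicate 1, 5 without replicate 2 and 6 without replicate 3, while over all genes 155, 215 and 396 were then called lower. Neither factor passed without ND replicate 1 or without ND replicate 2. In the fit without ND replicate 2, Mlxipl was at -1.26 (edgeR adjusted p = 0.0835) and Srebf1 at -1.01 (edgeR adjusted p = 0.0931). Without HFD replicate 1 no target was called lower, and 5 were without HFD replicate 3. The ratio of Mlxipl to Srebf1 differed by -0.44 on the log2 scale between the diets, with overlapping libraries and p = 0.2 in the exact permutation test.

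**Figure D4:**
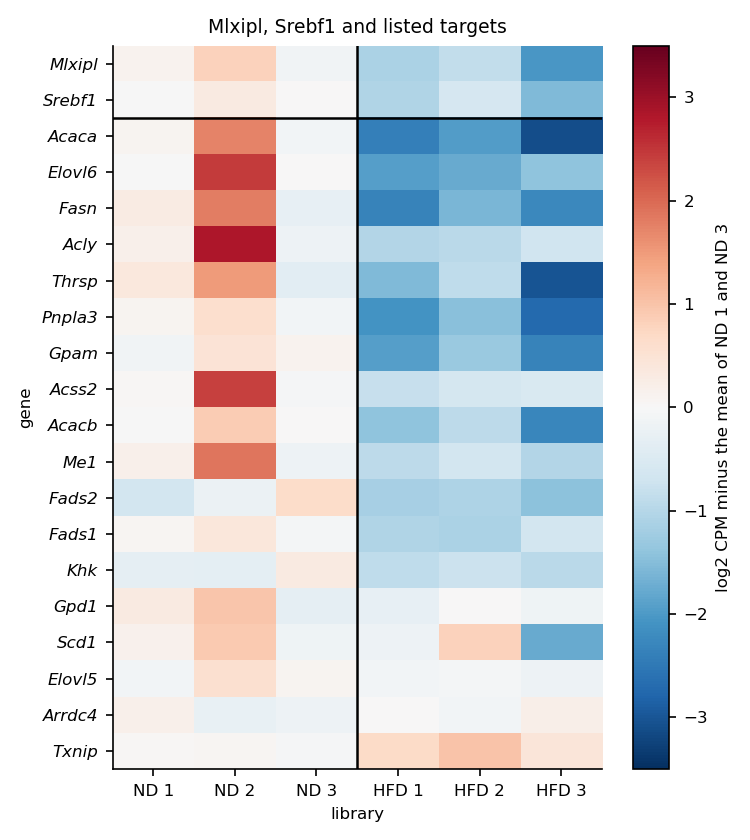
Heat map of Mlxipl, Srebf1 and the 18 tested ChREBP and SREBP-1 targets in the 6 libraries, as log2 CPM minus the mean of ND replicates 1 and 3. ND replicate 2 is raised for most targets, among them Acly and Elovl6, and the 3 HFD libraries lie below 0 for most genes.

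The genes that cut and retain SREBP-1 were measured as well. None of the 5 (among them Scap, at -0.06) was called in edgeR, none had an unadjusted p under 0.05, and DESeq2 called 0 (median log2 fold change -0.07). Mlx, the dimer partner of ChREBP, was at -0.21 (edgeR adjusted p = 0.397) and Srebf2, the sterol-regulating relative, at 0.26 (edgeR adjusted p = 0.277). Mlxip, which encodes the ChREBP relative MondoA, was higher by 0.62 (edgeR adjusted p = 0.0153), opposite to Mlxipl.

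Targets of the other factors were counted in the same way. Of 11 C/EBPα targets 4 were called lower and 1 higher in edgeR, with a median log2 fold change of -0.52. Those lower were the angiotensinogen gene Agt (-2.31, edgeR adjusted p = 0.0350), the resistin gene Retn (-2.05, 0.0377), Slc2a4 (-1.42, 0.0379) and the adipsin gene Cfd (-3.42, 0.0396), and the hormone gene Lep was higher (1.38, 0.0125). All 4 KLF15 targets had negative fold changes (median -1.37) and 3 were called lower. These were Bcat2, of branched-chain amino acid breakdown (-1.32, edgeR adjusted p = 0.0122), Prodh, of proline breakdown (-1.78, 0.0148), and again Slc2a4. No gene of either list was called without ND replicate 1, ND replicate 2 or HFD replicate 1, and none of the C/EBPα list without ND replicate 3. Slc2a4, Cfd, Retn and Lep are also adipocyte markers, as are all other listed C/EBPα targets except Agt and Pck1.

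Of 8 tested Wnt target genes out of 13, Nkd1 (1.03, edgeR adjusted p = 0.0231) and Myc (1.07, 0.0472) were higher and Tnfrsf19 (-1.92, 0.0323) was lower, with a median of -0.62. Tnfrsf19 rested on 28, 24 and 46 counts on the ND and 12, 4 and 8 on the HFD. Among the ND libraries it was highest in ND replicate 3, where epithelial markers were highest. So were Rnf43 (4, 4 and 169 counts in ND replicates 1 to 3) and Notum (1, 0 and 76), which did not pass the filter. Nkd1, Myc and Axin2 were not. The part of epithelial cells in these genes was not tested. Axin2 was lower in every HFD library than in any ND library without passing (-1.36, edgeR adjusted p = 0.0644). No gene of this list was called without any 1 of the ND libraries or without HFD replicate 1, and 1 was called, higher, without HFD replicate 3. Genes that answer to glucocorticoids, which also induce Cebpd and Klf15, split. Of 12 tested, 5 were called higher and 1 lower in edgeR, with a median of 0.66. Those higher were Pdk4 (1.69, edgeR adjusted p = 0.00938), Sgk1 (0.93, 0.00938), Tsc22d3 (0.92, 0.0142), Dusp1 (0.96, 0.0192) and Per1 (0.96, 0.0433), while Fkbp5 was lower (-0.88, 0.0387). Without ND replicate 1 or HFD replicate 1, 1 gene of this list was called higher and 0 lower, and 3 were called higher without ND replicate 2.

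**Figure D5:**
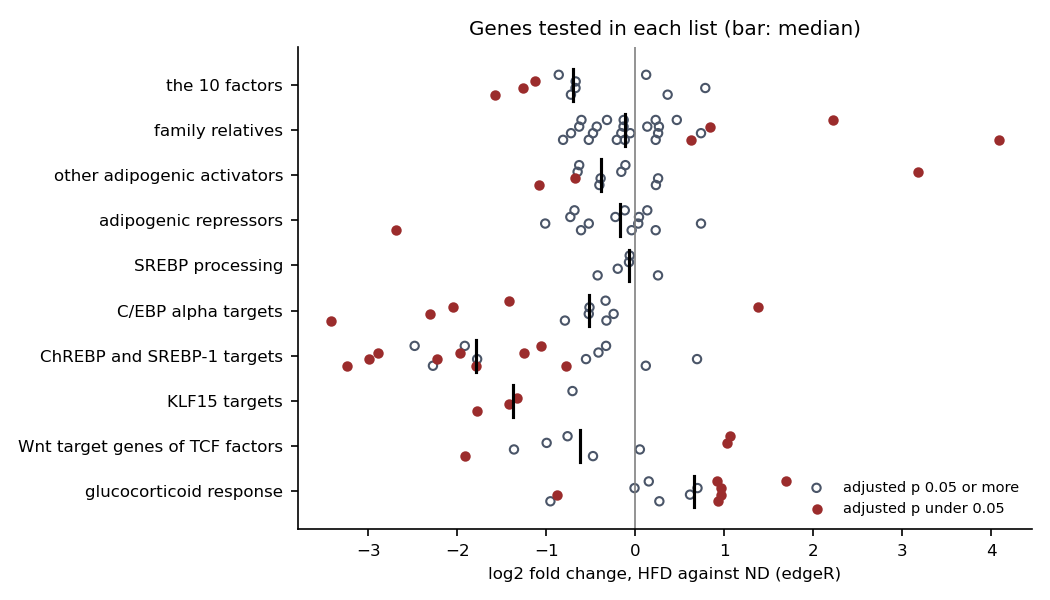
Log2 fold change (HFD minus ND) of each tested gene of the 10 factors and of each list, with the median of each list as a bar and genes called by edgeR filled. The target lists of ChREBP and SREBP-1 and of KLF15 have the lowest medians (-1.79 and -1.37), and the glucocorticoid list has the highest (0.66).

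Relatives of the factors showed a mixed picture. Of 25 tested out of 28, 4 were called higher and 0 lower in edgeR (2 lower at an unadjusted p under 0.05, and 0 lower in DESeq2), with a median log2 fold change of -0.12. Klf14, a regulator of adipose gene expression, went from 10, 8 and 16 counts on the ND to 223, 226 and 91 counts on the HFD (log2 fold change 4.08, edgeR adjusted p = 0.00615). Klf8 (2.22, edgeR adjusted p = 0.0132) and Klf6 (0.84, 0.0157) were higher too, and Klf8 had only 22, 12 and 36 counts on the ND. The 3 called KLF relatives thus moved opposite to Klf15. Of all 25 tested relatives, 11 had a positive and 14 a negative fold change, and uncalled KLF genes were on both sides. Without ND replicate 1 or HFD replicate 1, 1 relative was called higher, and 2 were without ND replicate 2. Ddit3, the dominant-negative C/EBP relative CHOP, was at 0.74 (edgeR adjusted p = 0.0648), Cebpg at -0.06 (0.740), Ebf3 at -0.32 (0.476) and Tcf7l1 at -0.61 (0.0854).

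Other activators of fat cell formation counted 11 tested of 12, with 1 called higher and 2 lower in edgeR and a median of -0.39. Egr2 (Krox20), which acts upstream of Cebpb and is also expressed in macrophages, rose from 83, 46 and 50 counts to 523, 257 and 744 counts (log2 fold change 3.17, edgeR adjusted p = 0.00789). Nfia fell by 1.08 (edgeR adjusted p = 0.0168) and Stat5a by 0.68 (0.0301). No activator was called lower without ND replicate 1, ND replicate 2 or HFD replicate 1, and 1 was without ND replicate 3. Of 14 repressors of adipogenesis 0 were called higher and 1, Sox9, was called lower (-2.69, edgeR adjusted p = 0.0123), with a median of -0.17. Sox9 had 262, 121 and 456 counts on the ND, highest in ND replicate 3, where epithelial markers were highest, and 44, 29 and 46 on the HFD, and its call was lost without ND replicate 1 or HFD replicate 1. The part of those cells in it was not tested. Over all pathway lists together, 98 of 107 genes were tested, 13 were called higher and 20 lower. Over all genes tested, 9.85% were called higher and 6.04% lower. The 1 activator called higher and the 1 repressor called lower are close to what these shares would give.

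Pparg, which works with C/EBPα on adipocyte genes, was at 299.8, 235 and 268 CPM on the ND and 174, 235 and 110.3 CPM on the HFD. The groups overlapped, and the log2 fold change of -0.63 (SE 0.27) did not pass (edgeR adjusted p = 0.149).

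For the 3 called factors, the genes with the most similar profile were found among 12523 protein-coding genes by the root mean square difference of centred log2 CPM over the 6 libraries. Closest to Mlxipl were Slc25a35 (0.13), Uck1 (0.13) and Cdo1 (0.14), where Mlxipl itself varied by 0.92 about its mean. Closest to Srebf1, which varied by 0.65, were Ppa1 (0.069), Suclg2 (0.079) and Oxld1 (0.082). Closest to Klf15, which varied by 0.82, were Cd209g (0.093), Klhl4 (0.11) and Gstt1 (0.11).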

How the data were processed

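RNA-seq was run on unfractionated epididymal fat, and groups and replicate numbers came from the labels. The authors deposited read counts per gene, which were tested, and FPKM values (corrected for gene length and library size), which the authors computed per library and which were used only for levels between genes, ratios and alternatives. The study's methods name TopHat and Cufflinks on GRCm38, whereas the submitters' processing notes list CASAVA 1.8, fastp, HISAT2 2.0.5, featureCounts 1.5.0-p3, DESeq2 1.20.0 and human builds, so that the aligner remains unsettled. The identifiers are of mouse genes: 54495 of 54532 matched GENCODE M21, which gave names and GRCm38 positions. The sources used here do not state strand-specific counting, and genes that overlap on opposite strands (Cebpa, Cebpb, Cebpd, Mlxipl, Srebf1 and Ebf2 have such partners) are uncertain.

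The fit of all 15751 genes that passed filterByExpr used edgeR 4.0.16 (R 4.3.3) with TMM scaling, the robust quasi-likelihood test with diet as the single term, and Benjamini-Hochberg adjustment over all genes tested. A gene was called at an adjusted p under 0.05. CPM values use TMM-scaled library sizes, of which 3 counts are 0.149 to 0.180 CPM. The script was tested on simulated data. Alternatives were DESeq2 1.42.0, limma 3.58.1 (voom, and log2 FPKM with a pseudocount of 1 or 0.1, kept at FPKM of at least 0.5 in 3 libraries or unfiltered), other scalings and filters, a replicate block, and leaving out each library. Scaling to the adipocyte markers was added after the data were seen. Ratios were compared by an exact two-sided permutation test.

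The factors, gene lists and markers were chosen with earlier results of these data known. Named genes are the 10 factors, up to 4 called genes a list by smallest p with listed relatives, Pparg, and the 3 closest profiles to each called factor. Genes outside that rule (Scap, Acly, Txnip, Elovl6, Fasn, Acacb, Khk, Fads2, Per1, Axin2, Rnf43, Notum, Pck1, Cfd, Plin1, Lipe, Adipoq, Lpl, Plin4, Cidec and Fabp4) were named after their values were seen. Promoter windows are the 250 bases before RefSeq starts (GRCm38.p6), read for 8 factors and 14 starts.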

Additional observations from a re-analysis of the deposited data

How the results depend on the processing

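The direction of 9 factors held under every alternative run. The exception was Zfp423, whose log2 fold change was -0.00079 without ND replicate 3 and -0.046 without HFD replicate 2, within a range of -0.046 to 0.29 when 1 library was left out. Against 3 factors called lower and 0 higher, DESeq2 called 6 lower and 1 higher, log2(FPKM + 1) without a filter called 0 lower, scaling to adipocyte markers called 0 lower and 1 higher, and leaving out 1 library gave 0 to 7 lower and 0 to 1 higher. The 7 came without HFD replicate 2, and 0 without ND replicate 1, ND replicate 2 or HFD replicate 1, and 1 without ND replicate 3. Cebpd was the factor called higher without HFD replicate 3. Without the filter on low counts, Mlxipl (edgeR adjusted p = 0.0819) and Klf15 (0.124) were not called and Tcf7l2 was (0.0430). Of the pathway genes, 13 were called higher and 20 lower. Log2(FPKM + 1) without a filter called 8 and 5, and leaving out 1 library gave 3 to 14 higher and 0 to 26 lower. Over all genes, against 1552 higher and 952 lower, DESeq2 called 2049 and 1617, FPKM without a filter 394 and 255, and leaving out 1 library 337 to 2368 and 94 to 1572. The ratios kept their direction under the alternatives tried, except that of Ebf2 to Ebf1, which ran from -0.11 to 0.19 when 1 library was left out. Same-numbered libraries came from different mice and did not deviate together (correlations of -0.0858, -0.0556 and -0.00532). With the replicate number as a block, Klf15 was at -1.37 and lost its call (edgeR adjusted p = 0.0566), 2 factors were called lower, and 1183 genes were higher and 703 lower. The counts of the factors ran from 233 to 27196, and shallower depths were not tried.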
